A study of Mus musculus with 4 samples.

Results

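The genes described here are 10 subunits of the Polycomb repressive complexes, Ezh1, Ezh2, Eed, Suz12 and Jarid2 of PRC2 and Bmi1, Ring1, Rnf2, Cbx7 and Cbx8 of PRC1. They were chosen by symbol, as known repressors of Cdkn2a in MLL-AF9 leukemia, by a rule that sets no threshold on a measured value, and each symbol was matched to its NCBI gene number among the 27179 genes listed. All 10 were found, and all 10 had a mean of at least 0.5 FPKM over the 4 libraries, so that all are among the 13230 genes tested. FPKM scales the reads of a gene by transcript length and by the mapped reads of the library, so that levels of different genes can be set side by side as far as the lengths used hold.

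The study compared the transcriptomes of leukemia-initiating cells (LICs) of acute myeloid leukemia with and without CD274, the surface ligand of PD-1, to find genes downstream of CD274. RNA was sequenced from 2 libraries labelled wild type (WT) and 2 labelled CD274-/- (CD274-null), all from bone marrow of C57BL/6 mice aged 6 weeks per the labels. In both groups the leukemia came from Lin- fetal liver cells infected with a retrovirus carrying the MLL-AF9 fusion and YFP and transplanted into lethally irradiated C57BL/6 mice, and cells of the recipient are left out only as far as the sort removes them. The labels say that the cells were sorted by FACS, and the study defines LICs as Mac-1+/c-Kit+ cells, but its sequencing methods speak of RNA from tissue, so that the sort is taken from the labels. Neither the round of transplantation nor the number of mice per library is given in the sources used here. Because nothing says that the libraries came from separate mice, p-values below measure only the spread between these libraries, which need not be that between mice.

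The recovered reads per library ran from 8452660 to 11048800, known but for a factor that all 4 share. Cd274 itself did not separate the labels, with 2.80 and 0.945 FPKM in the WT libraries against 1.43 and 2.29 FPKM in the CD274-null libraries. A value for the whole gene cannot show which exons were deleted, so it does not check the labels, and every direction below rests on the labels as given. The markers of the sort were present in every library, with Itgam (Mac-1) between 100 and 174 FPKM and Kit between 6.59 and 19.5 FPKM, the lowest Kit value being that of WT replicate 1. The summed FPKM of 10 neutrophil genes was 43483 and 8796 in the WT libraries against 18350 and 31402 in the CD274-null libraries. Xist stood at 2.57 and 51.1 FPKM in WT against 107 and 68.7 FPKM in CD274-null, and Ddx3y of the Y chromosome at 27.1 and 18.1 FPKM in WT against 0.0244 and 6.28 FPKM in CD274-null. The part of sex, of maturing neutrophils or of other cell types in the differences below was not tested, and in such bulk RNA fewer cells of a type and less RNA per cell cannot be told apart.

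Polycomb proteins keep developmental and cell cycle genes silent in steps that feed each other. PRC2 methylates histone H3 on a lysine through Ezh2 or Ezh1, which need Eed and Suz12 for activity, and PRC1 reads that mark through a Cbx chromodomain protein and attaches ubiquitin to histone H2A through Ring1 or Rnf2. In blood and in MLL-AF9 leukemia both complexes are known for holding down Cdkn2a, which encodes the INK4A and ARF inhibitors of the cell cycle.

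The starts of these genes lie in CpG-rich sequence. In the 250 bases before the RefSeq start on GRCm38.p6, the members held 12 to 37 CpG dinucleotides, against a median of 6 and an upper quartile of 16 over 32817 promoters of the same length. The promoters of the genes whose levels stood furthest apart between the groups on many reads, Suz12, Rnf2 and Jarid2, are shown, with that of Bmi1 for its E-box. They run 5′ to 3′ on the strand of the gene and end at the base before the start, with motif matches in capitals.

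Suz12, chr11:79992856-79993105, plus strand: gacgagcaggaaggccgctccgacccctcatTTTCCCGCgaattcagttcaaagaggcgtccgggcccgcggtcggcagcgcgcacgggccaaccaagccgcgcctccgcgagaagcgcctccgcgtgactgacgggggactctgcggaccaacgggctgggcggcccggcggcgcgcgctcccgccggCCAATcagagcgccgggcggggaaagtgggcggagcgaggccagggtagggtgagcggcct

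Rnf2, chr1:151500992-151501241, minus strand: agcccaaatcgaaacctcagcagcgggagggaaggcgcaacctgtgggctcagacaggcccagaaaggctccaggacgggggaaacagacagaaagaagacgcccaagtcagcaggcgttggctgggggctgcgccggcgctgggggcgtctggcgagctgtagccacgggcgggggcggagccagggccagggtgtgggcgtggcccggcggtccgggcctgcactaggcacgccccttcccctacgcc

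Jarid2, chr13:44730524-44730773, plus strand: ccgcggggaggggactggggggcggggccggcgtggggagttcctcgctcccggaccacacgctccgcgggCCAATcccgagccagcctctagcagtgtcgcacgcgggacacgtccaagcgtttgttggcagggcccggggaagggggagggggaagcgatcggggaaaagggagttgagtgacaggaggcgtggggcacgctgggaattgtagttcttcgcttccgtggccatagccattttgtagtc

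Bmi1, chr2:18676768-18677017, plus strand: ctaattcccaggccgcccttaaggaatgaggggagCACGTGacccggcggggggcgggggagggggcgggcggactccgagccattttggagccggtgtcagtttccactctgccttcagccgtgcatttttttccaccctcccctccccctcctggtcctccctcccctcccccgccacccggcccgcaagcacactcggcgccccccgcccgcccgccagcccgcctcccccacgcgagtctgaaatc

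The letters searched on both strands were TTTCCCGC, TTTCGCGC, TTTGCCGC and TTTGGCGC (E2F), CACGTG (E-box), CCAAT (the CCAAT box) and CCGGAAGT (ETS), with the NRF1 motif, and no match overlapped another in the promoters shown. Suz12 alone of the members held an E2F match, TTTCCCGC at 219 bases before the start, which 1.86% of all promoters held, and it had a CCAAT box at 61 bases. Jarid2 had a CCAAT box at 179 bases, as Ezh2, Suz12, Cbx7 and Cbx8 also held this motif, which occurs in 33.8% of all promoters. CACGTG stood in the promoters of Bmi1, 215 bases before the start, and Cbx8, against 6.02% of all promoters. The NRF1 motif was found in Ezh1 and Ezh2 (3.73% of all promoters), the ETS letters in no member (2.88% of all promoters), and no motif of the 5 in Rnf2. A match is a stretch of letters in this window and does not show that a factor binds there.

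The Polycomb genes differed widely in level. Suz12 was highest with 62.1 FPKM (SD 15.6 over the 4 libraries), followed by Ezh2 with 57.3 (SD 8.24), Eed with 32.2 (SD 1.71), Jarid2 with 22.7 (SD 5.02) and Rnf2 with 19.7 (SD 4.17). Ring1 stood at 16.5 (SD 3.48), Bmi1 at 11.9 (SD 1.99), Cbx8 at 11.0 (SD 4.23), Ezh1 at 10.4 (SD 2.31) and Cbx7 at 6.12 (SD 1.14). This order of pooled means was not the same in both groups. Suz12 exceeded Ezh2 in both WT libraries and Ezh2 exceeded Suz12 in both CD274-null libraries, and Rnf2 exceeded Jarid2 in both WT libraries and lay below it in both CD274-null libraries. Bmi1 exceeded Cbx8 and Ezh1 in both WT libraries and lay below both genes in both CD274-null libraries. In the pooled means Ezh1 of PRC2 stood below each PRC1 gene but Cbx7, whereas in the WT means it stood above Cbx8 (9.44 against 9.15 FPKM). Suz12 lay above 88.8% and Cbx7 above 33.7% of the genes tested. Between neighbours in this order only Ezh2 and Eed, and Eed and Jarid2, had ranges over the 4 libraries that did not overlap. The lengths behind FPKM are not stated, and those implied by the recovered reads departed most from the longest annotated transcript for Cbx7 (3026 against 6057 bases) and Cbx8 (1457 against 3580 bases). The places of these genes in the order depend on that length, and their reads may be undercounted by a shared factor, whereas differences between libraries of a gene do not depend on it.

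**Figure D1:**
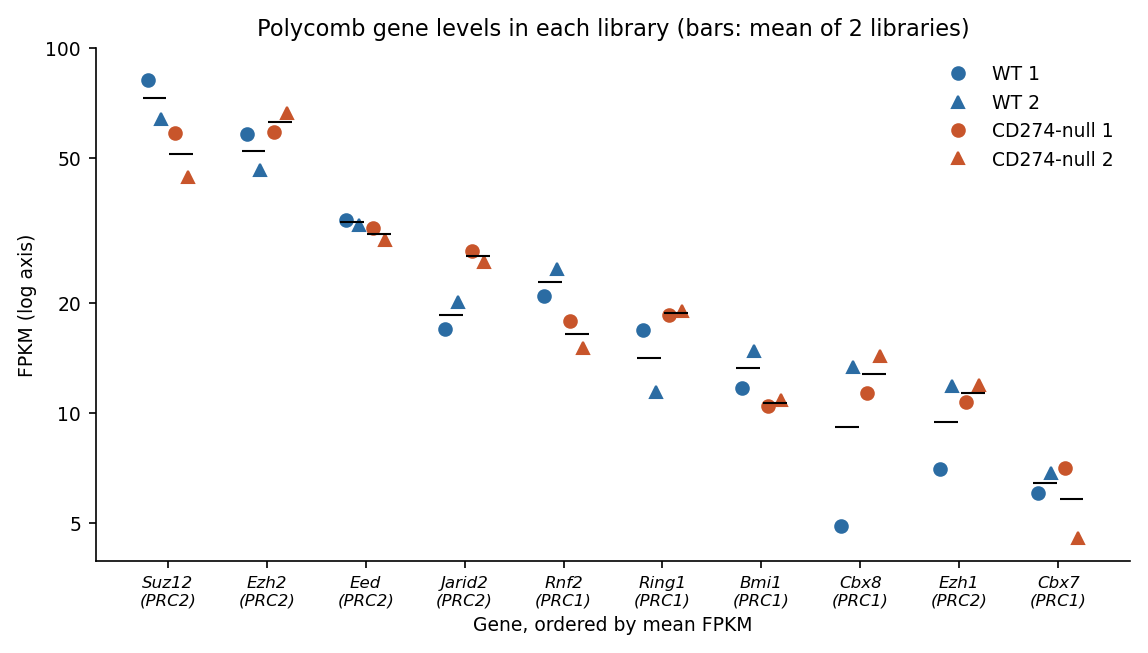
FPKM of the 10 Polycomb genes in each library on a log axis, ordered by mean FPKM, with WT libraries in blue, CD274-null libraries in orange and a bar at the mean of the 2 libraries of a group. Suz12 and Ezh2 reach at least 44.3 FPKM in every library, and Cbx8 shows the widest spread, from 4.90 to 14.3 FPKM.

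The main comparison asked whether the Polycomb genes differ between LICs labelled CD274-null and WT, by limma on log2(FPKM + 0.5) with Benjamini-Hochberg adjustment over all genes tested. Genes past a fold change of 1.5 with p below 0.01 before adjustment are called candidates. None of the 10 was a candidate, where 3.63% of all genes tested were (480 genes, of which 316, or 2.39% of those tested, were higher and 164 lower in CD274-null). None of the 10 had an unadjusted p under 0.05 either (13.7% of all genes) or an adjusted p under 0.05 (0.0756% of all genes). A count test on the recovered reads with voom likewise called 0 of the 10, with 1 at an unadjusted p under 0.05, Jarid2. The candidates and their split moved with the scaling, to 253 higher and 210 lower after quantile normalization and 247 higher and 200 lower with equal medians. Of the 480 candidates, 399 were also candidates after quantile normalization and 386 with equal medians. The member count stayed at 0.

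In CD274-null, 5 members had a positive and 5 a negative log2 fold change. Their median was 0.080, beside 0.012 over all genes tested. The groups did not overlap for 7 of the 10, Ezh2, Jarid2 and Ring1 being higher and Eed, Suz12, Bmi1 and Rnf2 lower in both CD274-null libraries, against 47.3% of all genes tested (25.6% higher and 21.8% lower). Within PRC2 and within PRC1 there were thus values on either side.

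**Figure D2:**
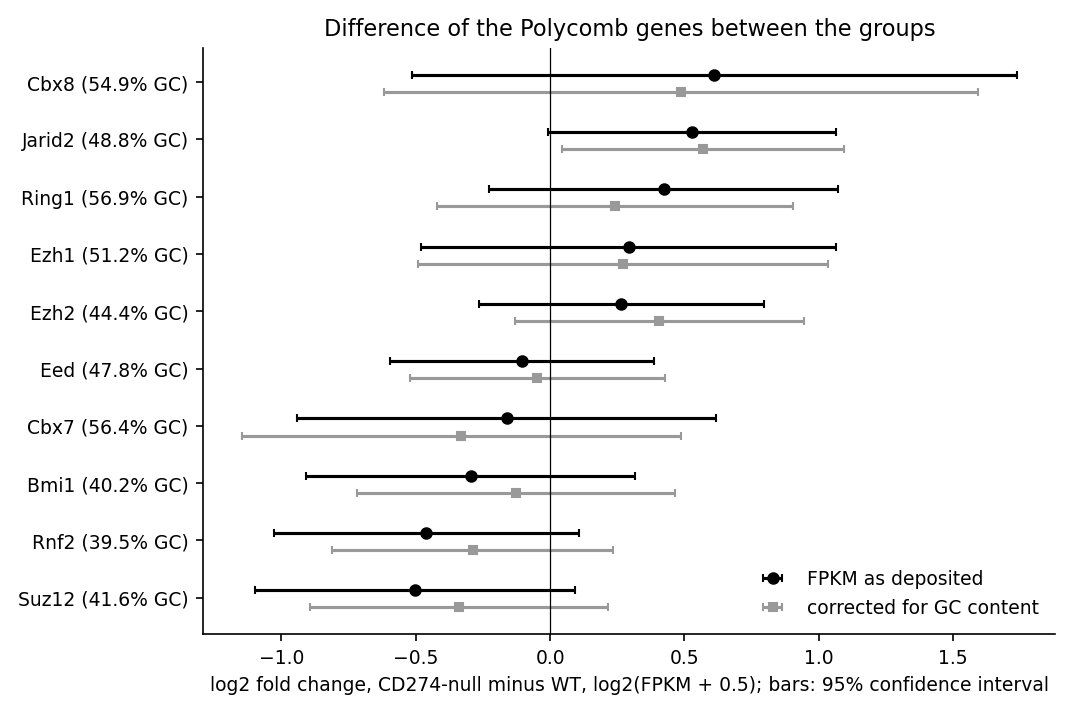
Log2 fold change of each Polycomb gene, CD274-null minus WT on log2(FPKM + 0.5), with 95% confidence intervals from limma, for the FPKM as deposited in black and after correction for GC content in grey. Every black interval spans 0, and the grey interval of Jarid2, from 0.043 to 1.10, lies above 0.

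Of the catalytic subunits of PRC2, Ezh2 had the more abundant transcript in every library. Ezh2 (chromosome 6, 47530274 to 47595270) had 58.0 and 46.3 FPKM in the WT libraries against 58.8 and 66.3 FPKM in the CD274-null libraries. The CD274-null values were both higher, but the lower of them exceeded WT replicate 1 by less than the gap between the WT libraries. On the log2 scale the difference was 0.27 (SE 0.22, 95% interval -0.27 to 0.80), with an adjusted p of 0.614 by limma, and 0.41 after GC correction. Ezh1 (chromosome 11, 101191115 to 101226463), the paralog typical of cells that do not divide, had 7.01 and 11.9 FPKM in WT against 10.7 and 11.9 FPKM in CD274-null. The other libraries lay close together and WT replicate 1 below them, so that the groups overlapped. Its log2 fold change of 0.29 (SE 0.32, 95% interval -0.48 to 1.06, adjusted p = 0.710 by limma) turned to -0.068 without WT replicate 1. Ezh2 exceeded Ezh1 by a ratio of 8.27 and 3.90 in WT against 5.48 and 5.57 in CD274-null, and the widest and the narrowest ratio were both those of WT libraries.

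The core subunits Suz12 and Eed were lower in both CD274-null libraries without passing the test. Suz12 (chromosome 11, 79993106 to 80034123), the scaffold of PRC2, whose CpG-rich promoter is shown above, had 82.0 and 63.8 FPKM in WT against 58.5 and 44.3 FPKM in CD274-null. The groups did not overlap, and the gaps within each group were wider than the gap between the groups. On 1927 to 4146 reads per library, the log2 fold change was -0.50 (SE 0.25, 95% interval -1.10 to 0.09), with an adjusted p of 0.419 by limma, and -0.34 after GC correction. Eed (chromosome 7, 89954654 to 89980976), which binds the methylated histone tail and stimulates the enzyme, was the steadiest member. Its 33.9 and 32.8 FPKM in WT stood beside 32.1 and 29.8 FPKM in CD274-null, so that the highest exceeded the lowest by little. The log2 fold change of -0.11 had an SE of 0.20 and a 95% interval from -0.60 to 0.39, with an adjusted p of 0.851 by limma, and it was -0.047 after GC correction.

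Jarid2, the DNA-binding accessory subunit that guides PRC2 to its targets, came closest to the test. Jarid2 (chromosome 13, 44730774 to 44921643) had 16.97 and 20.1 FPKM in WT against 27.7 and 25.98 FPKM in CD274-null. Both CD274-null libraries were higher than both WT libraries, and the gap between the groups exceeded the gap within either group. The log2 fold change was 0.53 (SE 0.22, 95% interval -0.0091 to 1.06), with an unadjusted p of 0.0529 and an adjusted p of 0.370 by limma. Over 16 other ways of processing the values Jarid2 remained higher in CD274-null, with an unadjusted p under 0.05 in 7 of them, among them the GC correction (0.57, 95% interval 0.043 to 1.10), and it was a candidate in 0.

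The ring finger ligases of PRC1 lay on opposite sides. Rnf2 (RING1B; chromosome 1, 151469398 to 151500991) had 20.9 and 24.8 FPKM in WT against 17.8 and 15.1 FPKM in CD274-null, and Ring1 (RING1A; chromosome 17, 34020792 to 34024680) had 16.8 and 11.4 FPKM in WT against 18.5 and 19.1 FPKM in CD274-null. Neither pair of groups overlapped. The log2 fold change was -0.46 for Rnf2 (SE 0.23, 95% interval -1.03 to 0.11, adjusted p = 0.434 by limma) and 0.42 for Ring1 (SE 0.27, 95% interval -0.23 to 1.07, adjusted p = 0.520 by limma). Their sum was 37.7 and 36.3 FPKM in WT against 36.4 and 34.1 FPKM in CD274-null, so that the total varied by less than either gene. Rnf2 made up 55.4% and 68.4% of that sum in WT against 49.1% and 44.2% in CD274-null, and the ratio of Rnf2 to Ring1 was 1.24 and 2.17 in WT against 0.964 and 0.792 in CD274-null. These ratios did not overlap, but 2 libraries against 2 cannot give a two-sided exact permutation p below 0.333. The transcripts of the pair also differ in GC content, 39.5% for Rnf2 and 56.9% for Ring1, and after GC correction the log2 fold changes were -0.29 and 0.24.

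Bmi1 (Pcgf4; chromosome 2, 18677018 to 18686629), the PCGF partner that stimulates the ring finger ligase in canonical PRC1, had 11.7 and 14.8 FPKM in WT against 10.4 and 10.8 FPKM in CD274-null. The CD274-null libraries lay close to each other and below both WT libraries. On the log2 scale Bmi1 differed by -0.29 (SE 0.25, 95% interval -0.91 to 0.32), with an adjusted p of 0.629 by limma, and by -0.13 after GC correction.

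In the pooled means the chromodomain genes Cbx7 and Cbx8 were the lowest of the PRC1 members. Cbx8 lay above Bmi1 in both CD274-null libraries and above Ring1 in WT replicate 2. Cbx7 (chromosome 15, 79915804 to 79971143) had 6.04 and 6.82 FPKM in WT against 7.07 and 4.55 FPKM in CD274-null, on 131 to 202 reads per library. The highest and the lowest value were both in CD274-null. Its log2 fold change was -0.16 (SE 0.32, 95% interval -0.94 to 0.62, adjusted p = 0.855 by limma) with -0.33 after GC correction and 0.13 without CD274-null replicate 2. The gene overlaps Apobec3, which stood at 20.1 and 19.5 FPKM in WT against 23.0 and 30.3 FPKM in CD274-null, and the strand setting of the counting is not given in the sources used here, so that reads of the shared stretch may be split between them.

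Cbx8 (chromosome 11, 119036303 to 119040913), a chromodomain protein needed by MLL-AF9 for transformation through its contact with the fusion partner, had 4.90 and 13.4 FPKM in WT against 11.4 and 14.3 FPKM in CD274-null. WT replicate 1 lay apart from the other libraries, on 79 reads against 140 to 198, and the groups overlapped. The log2 fold change was 0.61 (SE 0.46, 95% interval -0.51 to 1.74), with an adjusted p of 0.579 by limma. It was -0.070 without WT replicate 1 and 1.29 without WT replicate 2, where Cbx8 became a candidate. Cbx8 had the largest SD over the 4 libraries of the members, 0.67 on the log2 scale. Among 8826 genes, the patterns over these 4 libraries nearest to it, by the distance between centred log2 values, were those of Pml (distance 0.0383), Kit (0.0704) and Ccdc61 (0.0955). Pml, which organises nuclear bodies, had 7.20 and 18.8 FPKM in WT against 16.5 and 20.2 FPKM in CD274-null, and Kit, the receptor used for the sort, had 6.59 and 18.2 FPKM in WT against 16.2 and 19.5 FPKM in CD274-null. With 4 libraries, likeness of this kind is a description.

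**Figure D3:**
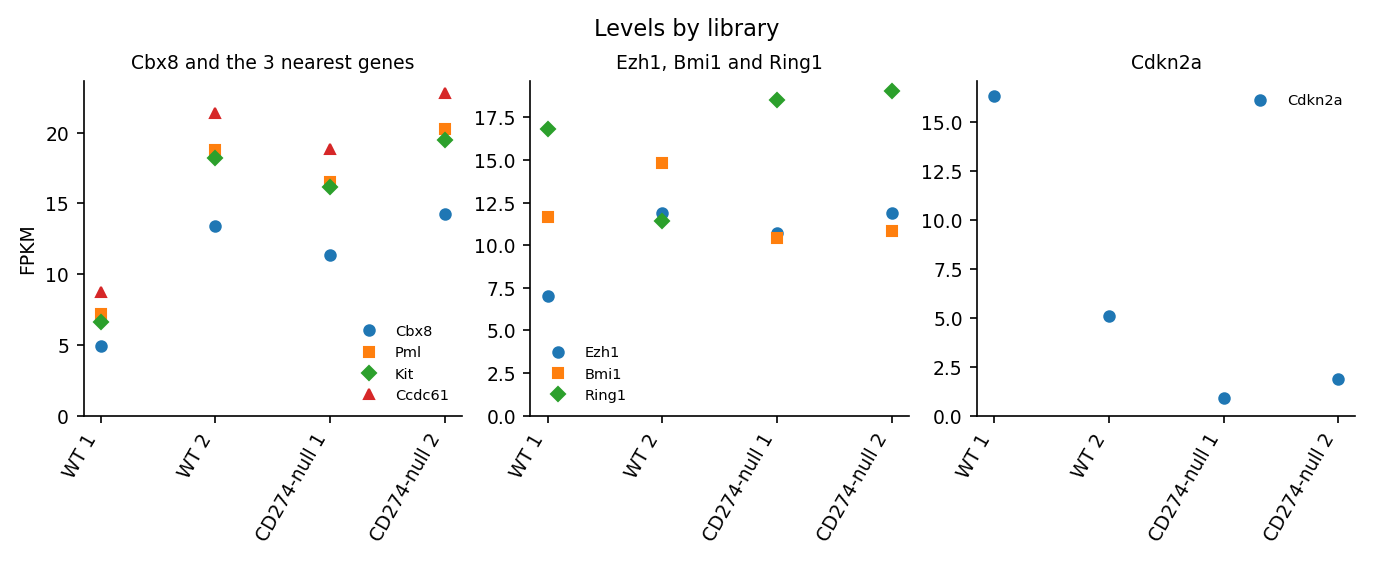
FPKM in each library of Cbx8 and the 3 genes with the nearest pattern, of Ezh1, Bmi1 and Ring1, and of Cdkn2a, on linear axes that start at 0. WT replicate 1 is lowest for Cbx8, Pml, Kit, Ccdc61 and Ezh1 and highest for Cdkn2a, with 16.4 FPKM.

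The ratio of Cbx7 to Cbx8 was 1.23 and 0.509 in WT against 0.623 and 0.319 in CD274-null, and the groups overlapped. Of the other chromodomain genes of canonical PRC1, Cbx6 is a low gene on 3 and 10 reads in WT against 43 and 71 reads in CD274-null, and had 0.0476 and 0.180 FPKM in WT against 0.892 and 1.31 FPKM in CD274-null, with a log2 fold change of 1.38 and an adjusted p of 0.311 by limma.

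**Figure D4:**
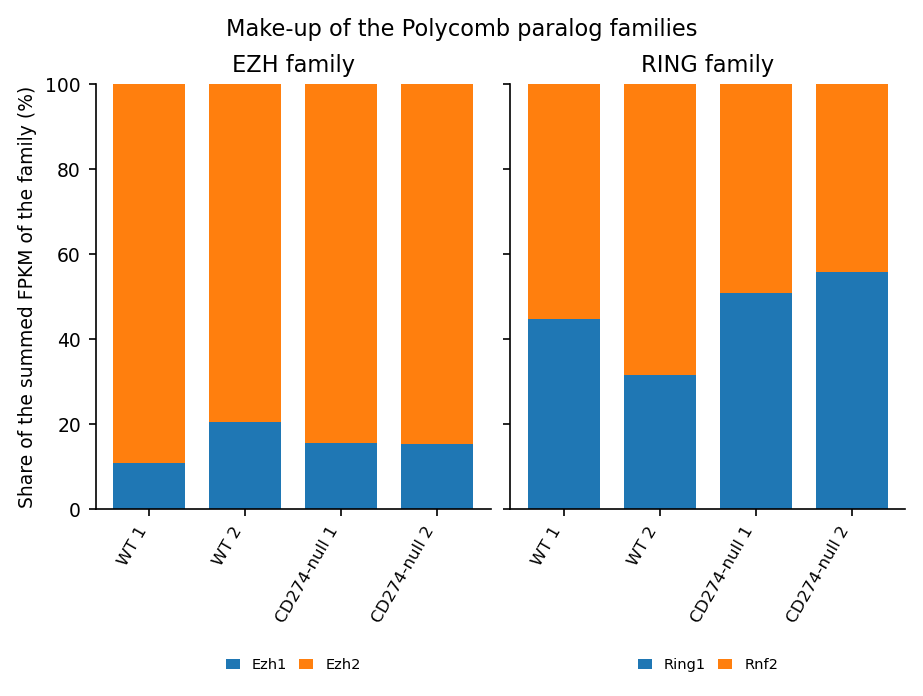
Share of each paralog in the summed FPKM of the EZH and RING families, 1 bar per library and 100% in each. Ezh2 makes up 79.6% to 89.2% of the EZH family, and the share of Rnf2 in the RING family is lower in both CD274-null libraries than in both WT libraries.

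The other genes of the Polycomb machinery held candidates at a share near that of all genes. Of 52 listed genes in PRC2, canonical PRC1, variant PRC1, and the deubiquitinase and demethylase lists, 48 were tested, of which 2 rose as candidates and 0 fell, beside 3.63% candidates among all genes tested. Their median log2 fold change was 0.011, and the groups did not overlap for 25 of the 48, beside the 47.3% of all genes tested. At an unadjusted p under 0.05 there were 8 of 48, beside 13.7% of all genes.

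Of the 8 other PRC2 genes, 0 were candidates and 1 had an unadjusted p under 0.05. Phf1, a Polycomb-like subunit that binds CpG-rich DNA, had 6.80 and 11.4 FPKM in WT against 16.9 and 21.7 FPKM in CD274-null, with a log2 fold change of 1.07 (adjusted p = 0.295 by limma). Lcor, whose locus also encodes a PRC2 accessory protein, had 2.45 and 3.03 FPKM in WT against 2.16 and 1.49 FPKM in CD274-null, with a log2 fold change of -0.49 that had no p under 0.05. The PHC genes, which polymerise canonical PRC1, summed to 26.8 and 26.6 FPKM in WT against 25.02 and 27.7 FPKM in CD274-null.

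In variant PRC1 1 of 20 tested genes rose as a candidate, Fbrs, and 0 fell. Fbrs, a relative of the PRC1 subunit AUTS2, had 34.0 and 44.3 FPKM in WT against 64.5 and 77.3 FPKM in CD274-null. Its log2 fold change was 0.86 (SE 0.23, adjusted p = 0.274 by limma), and it was a candidate in 3 of 16 alternatives, but not after GC correction (0.62), without WT replicate 1 (0.67), without CD274-null replicate 1 (0.99) or without CD274-null replicate 2 (0.73). Bcorl1, an X-linked corepressor, had 2.23 and 2.98 FPKM in WT against 6.07 and 5.75 FPKM in CD274-null, with a log2 fold change of 1.06 (adjusted p = 0.295 by limma). The deubiquitinase and demethylase list gave 0 candidates of 12 tested genes, and 2 of its genes had an unadjusted p under 0.05. These were Mbd6 with a log2 fold change of 0.75 (54.2 and 39.1 FPKM in WT, 75.6 and 80.1 FPKM in CD274-null, adjusted p = 0.299 by limma) and X-linked Hcfc1 with -0.51 (63.0 and 63.4 FPKM in WT, 48.7 and 39.9 FPKM in CD274-null, adjusted p = 0.359 by limma).

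**Figure D5:**
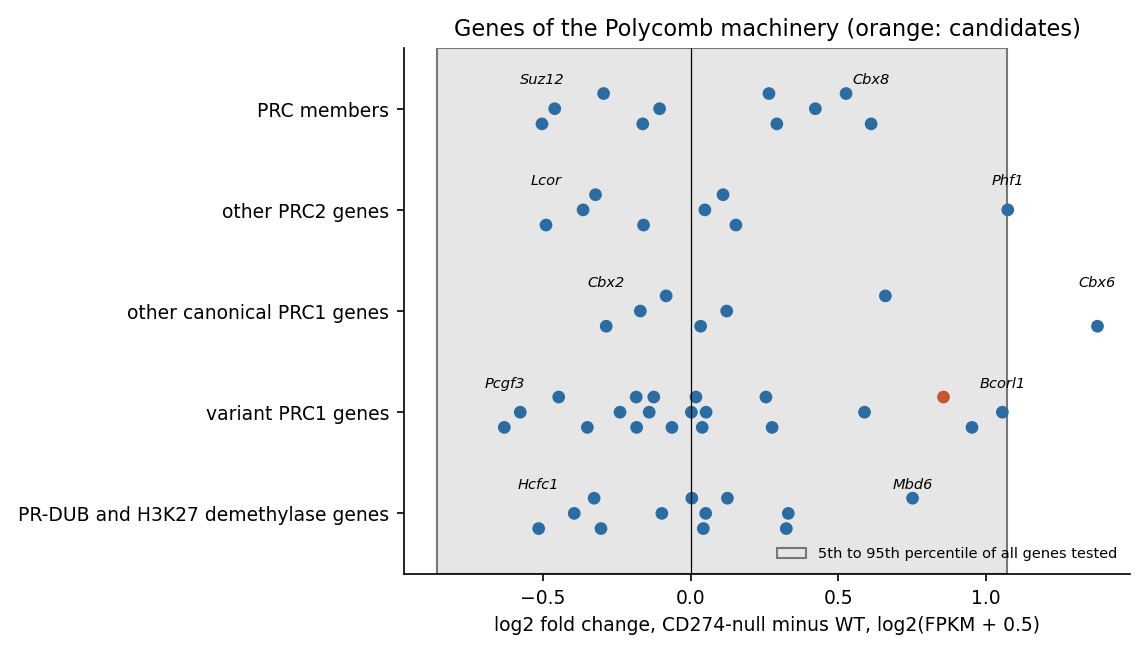
Log2 fold change, CD274-null minus WT on log2(FPKM + 0.5), of tested genes of the Polycomb machinery by list, 1 point per gene, with candidates in orange and the span from the 5th to the 95th percentile of all genes tested, -0.86 to 1.07, in grey. The 10 members all lie inside the grey span, and of the genes drawn Cbx6 lies furthest to the right.

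Cdkn2a, the target by which the 10 genes were chosen, had 16.4 and 5.10 FPKM in WT against 0.896 and 1.86 FPKM in CD274-null. Both CD274-null libraries were lower, and WT replicate 1 was well above WT replicate 2. It fell as a candidate with a log2 fold change of -2.42 (SE 0.58, adjusted p = 0.269 by limma) on 215 and 59 reads in WT against 9 and 21 reads in CD274-null, where 1.24% of all genes tested were lower candidates. It was a candidate in 8 of 16 alternatives. It was not with voom, with equal medians, without moderation, without a filter or with a mean of at least 5 FPKM. Nor was it without WT replicate 1 (-1.63), without CD274-null replicate 1 (-2.04) or without CD274-null replicate 2 (-2.80). Its neighbour Cdkn2b, another inhibitor of the cell cycle, was near the floor at 0.310 and 0.141 FPKM in WT against 0.162 and 0.0721 FPKM in CD274-null, on 1 to 5 reads per library, and was not tested.

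Developmental genes listed as silent Polycomb targets stood at or near 0. Because they were listed as silent genes, these values do not measure silencing by Polycomb. Of 32 such genes, among them the Hoxc and Hoxd genes listed and members of the Pax family, 18 were listed at 0 in all 4 libraries and 0 reached the mean of 0.5 FPKM needed for the test. Genes above 0 numbered 8 and 3 in the WT libraries against 3 and 7 in the CD274-null libraries. The highest values were Lhx2 with 0.966 FPKM in CD274-null replicate 2 and Pax6 with 0.423 FPKM in WT replicate 1.

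GC content moved with the fold changes. Over 11435 tested genes with a GC value the log2 fold change rose with the GC content of the transcript with a Spearman rho of 0.27, and over the 10 members rho was 0.68. This is a description across genes, which share the 4 libraries and are not replicates. Suz12, Bmi1 and Rnf2, all lower in CD274-null, had 39.5% to 41.6% GC, below the lower quartile of 44.9% over those genes. Ezh2 (44.4%) also lay below it but was higher in both CD274-null libraries, whereas Ring1 and Cbx8, higher in mean, and Cbx7, lower in mean, had 54.9% to 56.9%. After a loess correction, rho over all these genes was 0.011, and each member kept the sign of its log2 fold change, from -0.34 for Suz12 to 0.57 for Jarid2.

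Proliferation genes and markers of other cells were set beside these values. The 20 proliferation genes summed to 1621 and 1260 FPKM in WT against 1633 and 1621 FPKM in CD274-null, with Mki67 at 88.9 and 72.1 FPKM in WT against 89.0 and 102 FPKM in CD274-null. Of the 20, 15 had a positive log2 fold change, beside 6757 of 13230 over all genes tested. In both CD274-null libraries 9 were higher (25.6% of all genes) and 1 was lower (21.8% of all genes), and 1 was a candidate (3.63% of all genes), Top2a, which untangles DNA in dividing cells. Top2a had 66.3 and 47.0 FPKM in WT against 102 and 108 FPKM in CD274-null, and rose by a log2 fold change of 0.90 (adjusted p = 0.274 by limma). Summed FPKM was 12.9 and 37.0 in WT against 37.2 and 39.7 in CD274-null for 8 B cell genes (3 and 4, then 6 and 8 of them above 0). It was 186 and 75.8 in WT against 361 and 308 in CD274-null for 8 plasma cell genes. Of the 3 plasma cell genes tested, 2 were higher with an adjusted p under 0.05 by limma, a threshold that 10 genes passed in all, in either direction. No gene passed it with voom, after GC correction with or without the replicate block, without moderation, or without either CD274-null library. The 2 genes were Igkc, an immunoglobulin light chain (8.64 and 7.98 FPKM in WT, 214 and 189 FPKM in CD274-null, log2 fold change 4.52), and Jchain, which joins immunoglobulin units (0.370 and 0.514 FPKM in WT, 12.3 and 10.5 FPKM in CD274-null, log2 fold change 3.65). The remaining plasma cell gene tested had a log2 fold change of 0.12, and Igkc made up most of the plasma cell sum in both CD274-null libraries. T cell genes, 8 in all, summed to 0.949 and 2.20 in WT against 3.998 and 1.94 in CD274-null. Macrophage genes summed to 148 and 145 FPKM in WT against 90.2 and 106 FPKM in CD274-null, and erythroid genes to 2.92 and 55.7 FPKM in WT against 4.85 and 0.589 FPKM in CD274-null. Their part in the values of the Polycomb genes was not tested.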

How the data were processed

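LICs, sorted per the labels, were measured by RNA sequencing in 4 libraries, and each column was matched to a sample by its title (0 were unmatched). The deposited values are FPKM, 1 per library for each gene, which the authors made from TruSeq v2 libraries; per the submitters' processing notes CASAVA 1.8.2, TopHat2 2.0.12 and GRCm38 were used, and the counting program and gene lengths are not given in the sources used here. Names and coordinates came from RefSeq (GRCm38.p6), where 25275 of 27179 genes had a symbol, promoter sequences likewise, matched by symbol for all 10 members, and GC content from the longest GENCODE transcript of a gene.

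Genes with a mean of at least 0.5 FPKM were tested on log2(FPKM + 0.5) by linear models without covariates and with a trended prior variance (limma 3.58.1, R 4.3.3), with Benjamini-Hochberg adjustment over 13230 genes. A fold change on this scale understates the change of low genes. Intervals are 95% intervals of that fit. Whole reads, up to a common factor, were recovered from the steps of FPKM for 100% of the 17083 genes above 0 in at least 2 libraries (tolerance 0.001), and set the precision of a gene. A count test on these reads (voom) called 452 genes. The fit was tested on simulated data. Values of some listed genes are not reported here, and the figures leave them out.

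Beside the members, the text names listed genes that were candidates, the 2 genes of each list with the largest fold change among those whose groups did not overlap, the INK4 genes, and the 3 genes nearest to the most variable member. The members and lists were chosen with earlier results of these data known. The 16 alternatives changed the pseudocount (1 or 0.1), the filter (none or 5 FPKM), the scaling, the moderation, GC correction, the replicate block and the libraries.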

Additional observations from a re-analysis of the deposited data

How the results depend on the processing

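No member was a candidate in 15 of 16 alternatives, the exception being Cbx8 without WT replicate 2, so that the count ran from 0 to 1 when each library was left out in turn, while the median log2 fold change of the members ran from -0.076 to 0.16. With a library left out, the log2 fold change ran from -0.068 to 0.65 for Ezh1 and from -0.070 to 1.29 for Cbx8, both negative without WT replicate 1, and from -0.45 to 0.13 for Cbx7, positive without CD274-null replicate 2, and the other members kept their sign but not their size. It ran from 0.11 without WT replicate 2 to 0.43 without WT replicate 1 for Ezh2, from 0.15 to 0.69 for Ring1 without the same libraries, and for Bmi1 from -0.46 without WT replicate 1 to -0.13 without WT replicate 2. Without CD274-null replicate 1 and 2 it was -0.70 and -0.30 for Suz12 and -0.16 and -0.053 for Eed. Candidates in the other Polycomb lists, 3 in the comparison above, numbered 1 without a filter, with a mean of at least 5 FPKM, after quantile normalization, after GC correction and after GC correction with the replicate block, 0 with equal medians and 0 without moderation, and 0 to 4 with a library left out. Candidates among all genes numbered 170 without moderation, 297 after GC correction with the replicate block and 147 to 634 with a library left out, the lowest without CD274-null replicate 2. Where a group is left with 1 library, that library is assumed to vary like the other group. The causes were not tested. Same-numbered libraries did not deviate together over the genes tested (correlation -0.015). With 2 libraries in each group this cannot tell whether the numbers pair them. With the replicate block 526 genes were candidates, 0 of the members and 4 in the other lists. The intervals of the members span changes of 1.5-fold or more in at least 1 direction.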
